A study of Mus musculus with 30 samples.

Results

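The thalamus lies directly beneath the dorsal hippocampus, and 9 genes used as its markers were followed through RNA-seq libraries of the mouse dorsal hippocampus: Slc17a6, Zic1, Tcf7l2, Lef1, Prkcd, Rora, Plekhg1, Ramp3 and Tnnt1. The set was chosen from the measured values themselves, because Slc17a6 was lower in every trained condition than in the home cage, so the differences from the home cage are given as a description with no test. All 9 genes have 1 row each among the 24883 rows of the table, and 8 of the 9 are among the 13184 rows with a mean of at least 1 FPKM, which is fragments scaled to the length of the transcript and to the mapped fragments of the library. Tnnt1, with a mean of 0.967 FPKM, fell just below that filter and takes its differences from a fit without it.

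The 30 libraries came from 30 young adult male wild-type C57BL/6J mice, 6 in each of 5 conditions, and each library is a dissected dorsal hippocampus hemisphere. Infusions were made in the dorsal CA1 (dCA1), per the labels 3 days before training in the trained conditions. The transfection reagent in vivo-jetPEI, without DNA, was the vehicle of VEH-HC, VEH-T3 and VEH-T10. The plasmid conditions, Y397F-T10 and Y397D-T3, were given DNA encoding HA-tagged mouse CREST, a neuronal chromatin regulator, under the miniCaMK2 promoter. It carried the Y397F form, called phospho-null in the labels, or the Y397D form, called phospho-mimetic there, and came on top of the mouse's own CREST. The paper could not detect phosphorylation of this site and speaks of point mutants only. VEH-HC mice stayed in the home cage with handling only. T10 stands for 10 min of training in the object location memory (OLM) task, T3 for 3 min, which is below the training threshold, and trained tissue was taken 1 h afterwards. Where 4 differences from VEH-HC are listed below, they stand in the order VEH-T10, then Y397F-T10, then VEH-T3, then Y397D-T3. No condition received a plasmid without the mutation, so an effect of plasmid DNA and one of the mutant protein cannot be told apart.

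Relay neurons of the thalamus are glutamatergic and load their synaptic vesicles through the transporter encoded by Slc17a6 (VGLUT2), whereas hippocampal pyramidal and granule neurons mainly use that of Slc17a7. During development Tcf7l2 and Lef1, partners of beta-catenin at the end of the Wnt pathway, and the zinc-finger factor Zic1 pattern the thalamus and the adjacent habenula, and Rora, a nuclear receptor, marks sensory relay nuclei. None of the 9 genes is restricted to the thalamus. Zic1 is also made by meningeal cells, Lef1 by brain endothelium, Tcf7l2 by maturing oligodendrocytes and Rora by cortical neurons.

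The label was first checked against the data. Gbx2, the homeobox gene that defines developing thalamic relay neurons, had a mean of 0.027 FPKM and was listed at 0 in 15 of 30 libraries. Of 10 further thalamus genes, 7 passed the filter of 1 FPKM and the summed level of all 10 had condition medians between 45.4 FPKM in VEH-T10 and 53.6 FPKM in VEH-HC. Adarb1 alone had a mean of 27.8 FPKM over the 30 libraries and so carries much of this sum. The habenula factor Pou4f1 was also listed at 0 in 15 of 30 libraries. Markers of the labelled tissue were plentiful, with the 5 CA1 pyramidal genes summing to between 213.1 and 314.0 FPKM and the 4 dentate granule genes to between 45.5 and 152.9 FPKM. The 9 genes are therefore described here one by one. In such bulk tissue, fewer cells of a type and less RNA per cell cannot be told apart.

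Of the 30 libraries, 4 stood apart from the rest: VEH-T10 replicate 1, Y397F-T10 replicate 1, VEH-T3 replicate 1 and Y397D-T3 replicate 3. They held the 4 lowest values of all 30 libraries for Prkcd, for Plekhg1 and for the myelin gene Mbp, which lay at 642.4, 628.0, 712.7 and 843.7 FPKM in them against a mean of 1194.3. None of the 4 is a VEH-HC library, and 3 of them carry the replicate number 1. Results that rest on them are given with and without them, an alternative added after the values were seen. Leaving them out by their Prkcd level also narrows the range of Prkcd, Plekhg1 and Mbp. It raises the trained means of these genes against VEH-HC by construction. Relative depth, estimated from the steps between low values, spanned 0.812 to 1.25 times that of the median library, with medians from 0.975 in VEH-T3 to 1.11 in VEH-HC.

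Slc17a6 (chr7:51622006-51671119, + strand, GRCm38) lay at 4.81, 4.93, 3.6, 3.78, 5.06 and 4.14 FPKM in the 6 VEH-HC libraries. It read 2.71, 1.39, 2.79, 0.934, 1.5 and 0.651 FPKM in VEH-T10, and 1.97, 1.78, 1.24, 1.42, 1.51 and 1.0 FPKM in Y397F-T10. In VEH-T3 the values were 6.15, 1.64, 2.49, 0.825, 1.77 and 2.07 FPKM. All 12 libraries trained for 10 min thus lay below the lowest home-cage library, whereas VEH-T3 held 5 libraries below it and 1, replicate 1, above the highest. In Y397D-T3 Slc17a6 read 2.56, 0.733, 3.52, 1.46, 1.15 and 2.12 FPKM, again all below VEH-HC.

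Over the trained mice, 23 of 24 libraries lay under the home-cage range. From the highest to the lowest, the means were 4.39 ± 0.629 FPKM in VEH-HC, 2.49 ± 1.88 in VEH-T3, 1.92 ± 1.02 in Y397D-T3, 1.66 ± 0.898 in VEH-T10 and 1.49 ± 0.353 in Y397F-T10 (SD, n = 6 each). On the log2(FPKM + 1) scale, which understates the change of low genes, the differences from VEH-HC were -1.08, -1.12, -0.75 and -0.95, each with a standard error of 0.246. Without the 4 libraries that stood apart they were -1.18, -1.17, -0.99 and -1.09. Counted from the lowest, those libraries ranked 5, 6, 6 and 6 of 6 for Slc17a6 within their conditions, and all are trained. Leaving them out therefore lowers the trained values by construction. The ranges of the 4 trained conditions overlapped, and among neighbours in the order of the means only VEH-HC was separated from the conditions below it, apart from 1 VEH-T3 library.

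**Figure D1:**
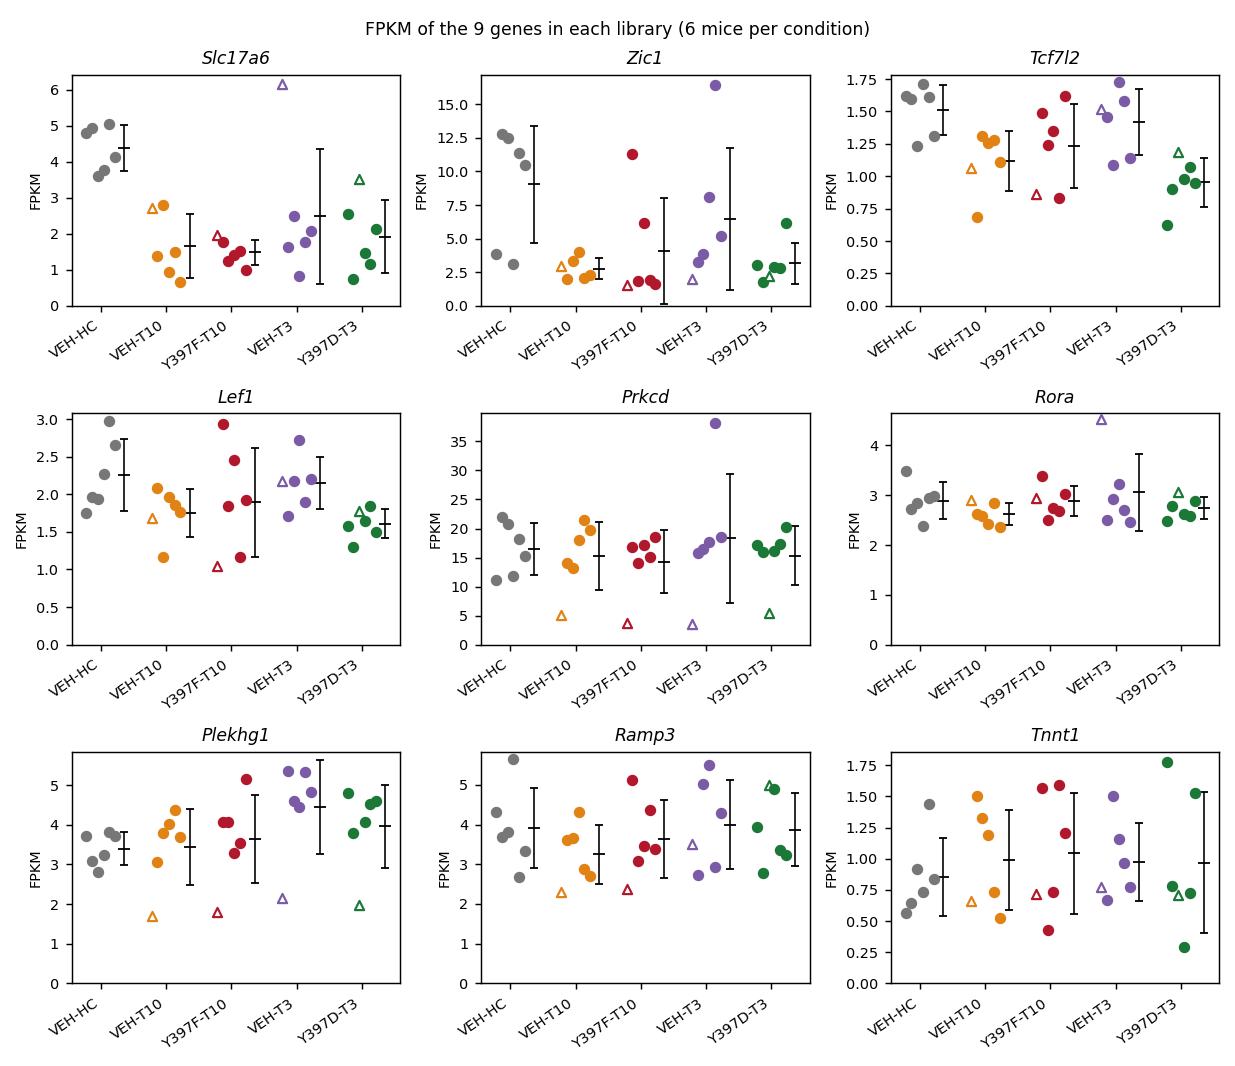
FPKM (y axis, linear from 0) of each of the 9 genes in each library (points, 6 mice per condition, x axis), with mean and SD beside them; open triangles are the 4 libraries with the lowest Prkcd. Slc17a6 was below the home-cage range in 23 of 24 trained libraries, Zic1 varied from 1.53 to 16.4 FPKM, and the triangles are the lowest points for Prkcd and Plekhg1.

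Zic1 (chr9:91358058-91365810, - strand) had the second-highest mean of the 9 genes, 5.1 FPKM, and the widest spread among mice of one condition, with a coefficient of variation of 97.7% in Y397F-T10. Its 6 VEH-HC libraries fell into 2 levels, at 12.8, 12.5, 11.4 and 10.5 FPKM on the one hand and 3.88 and 3.11 FPKM on the other. In VEH-T10 it lay between 2.0 and 4.02 FPKM, with 4 of 6 libraries below the home-cage range. In Y397F-T10 it read 11.3 and 6.17 FPKM in replicates 2 and 4 and between 1.53 and 1.89 FPKM in the other libraries, and in VEH-T3 it ran from 1.97 to 16.4 FPKM, the highest value of all 30. In Y397D-T3 it lay between 1.78 and 6.16 FPKM. In each trained condition the groups overlapped with VEH-HC. The differences from VEH-HC were -1.28, -1.13, -0.53 and -1.19 in the order above, with a standard error of 0.401, and 14 of 24 trained libraries lay below the lowest VEH-HC value.

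The choroid plexus, the secretory epithelium of the ventricles, moved with Zic1. Its 6 markers, Ttr, Kl, Folr1, Clic6, Kcnj13 and Otx2, all passed the filter and none was at 0 in any library. Their summed level ran from 918.4 to 5606.8 FPKM in VEH-HC. It ran from 10.4 to 4476.7 FPKM at VEH-T10, from 29.9 to 12800.7 FPKM at VEH-T3, from 28.8 to 10414.8 FPKM at Y397F-T10 and from 14.2 to 2842.4 FPKM at Y397D-T3. All 6 differences from VEH-HC were below 0 in each of the 4 trained conditions, with medians of -2.17, -1.86, -1.0 and -2.67, and none passed limma's adjusted p of 0.05, the lowest being 0.098 for Folr1 in Y397D-T3. In a fit of only the libraries compared, all 6 passed as lower in Y397D-T3 (limma adjusted p between 0.00783 and 0.0446) and 0 did in the other conditions. That fit called 1160 of 13184 rows lower in Y397D-T3, against 230 in VEH-T10, 37 in Y397F-T10 and 0 in VEH-T3. The contrast between conditions is thus shared by all rows, and nothing is read from it. Across the 30 libraries, after the mean of each condition was subtracted, Zic1 rose and fell with the mean of the choroid plexus list (r = 0.693, permutation p = 0.00026, adjusted over 81 relations 0.00301; Spearman's rho = 0.703, permutation p = 0.0002) and with that of the meningeal fibroblast list (r = 0.699, permutation p = 7e-05, adjusted 0.0013; rho = 0.636, permutation p = 0.00071). Without the pair of libraries farthest from the median of Zic1, r was 0.656 and 0.635. Without the 4 libraries that stood apart they were 0.667 and 0.663. With all 30 libraries, both r were above 0 within all 5 conditions. The part of choroid plexus or meningeal tissue in the Zic1 values was not tested.

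Tcf7l2 (chr19:55741820-55933654, + strand) and Lef1 (chr3:131110471-131224356, + strand) were the least abundant of the 8 genes that passed the filter, per length. Tcf7l2 lay at 1.62, 1.6, 1.23, 1.71, 1.61 and 1.31 FPKM in VEH-HC and at 0.624, 0.902, 1.19, 0.981, 1.07 and 0.947 FPKM in Y397D-T3, 2 ranges that did not overlap. In the other trained conditions its ranges of 0.688 to 1.31, 0.834 to 1.62 and 1.09 to 1.73 FPKM overlapped that of VEH-HC. The differences from VEH-HC were -0.25, -0.18, -0.06 and -0.37 with a standard error of 0.097. Lef1 had a mean of 2.26 ± 0.473 FPKM in VEH-HC and 1.61 ± 0.198 FPKM in Y397D-T3 (SD, n = 6), with overlapping ranges, and its differences were -0.24, -0.2, -0.05 and -0.32 with a standard error of 0.126. Lef1 also followed the meningeal fibroblast list within conditions (r = 0.673, permutation p = 0.00138, adjusted over 81 relations 0.0102; rho = 0.658, permutation p = 0.00053; r = 0.569 without the pair of libraries farthest from its median, and 0.701 without the 4 libraries that stood apart).

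Since 4 of the 9 genes encode factors that bind DNA, the promoters of all 9, taken from RefSeq as 250 bases before to 50 bases after a gene's listed start, were searched on both strands for the core letters CTTTGA of TCF/LEF factors, AGGTCA of ROR factors and CAGCAGG of ZIC factors. Among 32851 mouse promoters of this length, 16.0%, 16.3% and 10.5% hold these letters. A window was searched for 1 listed start per gene, although RefSeq lists 2 for Slc17a6, Tcf7l2 and Prkcd and 4 for Lef1, and the window of Plekhg1 lies 132303 bases from the start of the position given for it below. TCF/LEF letters were found in 1 of 9 promoters, ROR letters in 0 of 9 and ZIC letters in 1 of 9. The 2 matches are shown with 30 bases each, 5′ to 3′ along the gene's strand with the matched letters in capitals, since no other match was found in the 9 windows searched. They are matches of letters only, and the TCF/LEF match reads on the opposite strand.
Prkcd, chr14:30626330-30626359, - strand, GRCm38.p6, 139 bases before the start: aggacttgcaacTCAAAGaggctgagacgc
Lef1, chr3:131110219-131110248, + strand, GRCm38.p6, 93 bases before the start: ccccacccctcCAGCAGGcagccaaggaga

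Prkcd (chr14:30595354-30626210, - strand), which encodes protein kinase C delta, was the most abundant of the 9 genes per length, with a mean of 15.9 FPKM. It lay at 11.2, 21.9, 20.7, 11.9, 18.2 and 15.3 FPKM in VEH-HC, and at 5.18, 14.0, 13.2, 18.0, 21.5 and 19.7 FPKM in VEH-T10. In Y397F-T10 it read 3.7, 16.9, 14.1, 17.2, 15.1 and 18.6 FPKM, in VEH-T3 3.55, 15.8, 16.4, 17.6, 38.1 and 18.5 FPKM, and in Y397D-T3 17.1, 15.9, 5.46, 16.1, 17.3 and 20.2 FPKM. Each trained condition therefore held exactly 1 library far below the home-cage range, and VEH-T3 also held the highest value, in replicate 5. The differences from VEH-HC were -0.18, -0.29, -0.06 and -0.15 with a standard error of 0.398. Without those libraries they turned to 0.08, 0.02, 0.31 and 0.1.

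Plekhg1 (chr10:3740364-3967303, + strand), which encodes a guanine nucleotide exchange factor, was low in the same 4 libraries, at 1.7, 1.81, 2.15 and 1.97 FPKM, against a home-cage range of 2.82 to 3.82 FPKM. It was the only one of the 8 genes that passed the filter whose differences from VEH-HC were mostly above 0, at -0.02, 0.05, 0.28 and 0.15 with a standard error of 0.187. Without the 4 libraries they were 0.12, 0.18, 0.43 and 0.29, and Plekhg1 was then called higher in VEH-T3 and Y397D-T3, by the contrast that chose the genes. In VEH-T3 the other 5 libraries lay between 4.44 and 5.36 FPKM, above every VEH-HC library, and 14 of 24 trained libraries exceeded the home-cage range.

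Rora (chr9:68653786-69388246, + strand) varied least, from 2.37 to 4.53 FPKM over the 30 libraries. Its means lay between 2.62 ± 0.217 FPKM in VEH-T10 and 3.06 ± 0.775 FPKM in VEH-T3 (SD, n = 6), and its highest value belonged to VEH-T3 replicate 1, the library that was also highest in Slc17a6. Differences from VEH-HC lay between -0.1 and 0.05. Ramp3 (chr11:6658521-6677475, + strand), whose protein modifies the receptors of the calcitonin family, had means between 3.25 ± 0.744 FPKM in VEH-T10 and 4.0 ± 1.13 FPKM in VEH-T3, with differences between -0.2 and 0.02. Tnnt1 (chr7:4504570-4516382, - strand), the slow skeletal form of troponin T, ranged from 0.294 to 1.78 FPKM and had differences between 0.05 and 0.12, each with a standard error of 0.172. For these 3 genes all conditions overlapped with VEH-HC.

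**Figure D2:**
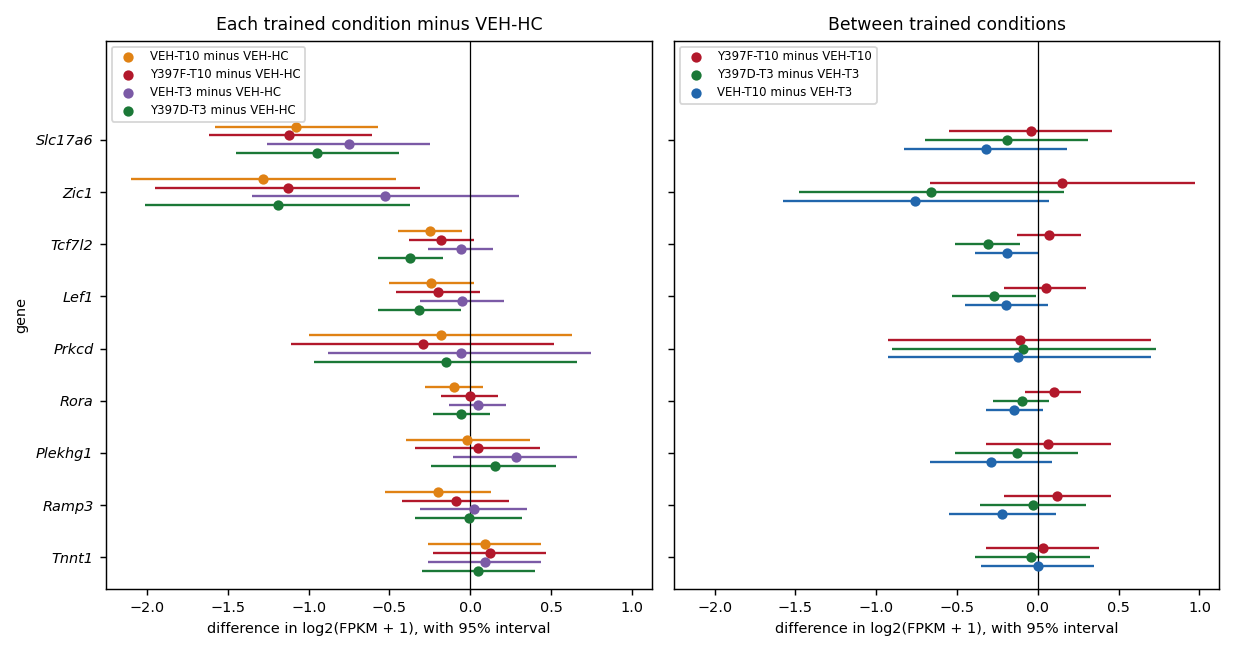
Differences in log2(FPKM + 1) with 95% intervals from limma (x axis) for the 9 genes (y axis), left for each trained condition minus VEH-HC, from which the genes were chosen, and right between trained conditions. Slc17a6 has all 4 left-hand differences between -1.12 and -0.75, and in the right panel the intervals that leave out 0 are those of Tcf7l2 and Lef1 for Y397D-T3 minus VEH-T3.

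Counts of calls against VEH-HC rest on the same contrast as the choice of genes, and the control libraries are shared by all 4 comparisons, so nothing is read from them. At an adjusted p under 0.05 (limma, Benjamini-Hochberg over all rows tested), 1 of 8 genes was lower in VEH-T10, beside 0.501% of all rows called lower. In Y397F-T10 it was 1 of 8 beside 0.66%, in VEH-T3 0 of 8 beside 2.94%, where 1 of 8 had an unadjusted p under 0.05 beside 13.8% of rows lower at that level, and in Y397D-T3 2 of 8 beside 3.16%. The genes were Slc17a6 in the first, second and last, and Tcf7l2 in the last. Called higher were 0 of the 8 in each, beside 0.319%, 0.47%, 2.23% and 3.91% of all rows, and 0 of the 8 had an unadjusted p under 0.05 in that direction. Ranges wholly below VEH-HC were seen for 1, 1, 0 and 2 of the 9 genes, beside 1.64%, 1.24%, 1.31% and 3.02% of all rows. The median difference of the 8 genes was -0.22, -0.19, -0.05 and -0.23, beside -0.025, -0.041, -0.035 and -0.034 over all rows. With each library centred on its median gene, calls over all rows turned from mostly lower to mostly higher in 3 conditions, from 42 higher and 66 lower to 33 and 13 in VEH-T10, from 62 and 87 to 30 and 12 in Y397F-T10, and from 294 and 387 to 239 and 102 in VEH-T3. In Y397D-T3, where most were higher already, they went from 515 and 417 to 692 and 248.

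The 3 comparisons between trained conditions were not used to choose the genes and were tested. They set the Y397F plasmid against reagent without DNA at 10 min of training and the Y397D plasmid against it at 3 min. The last sets 10 min against 3 min of training in vehicle mice. By limma, 0 of 8 genes passed an adjusted p of 0.05 in Y397F-T10 against VEH-T10, beside 0.0% of all rows, and 0 had an unadjusted p under 0.05, beside 3.78%. For Slc17a6 the difference was -0.04 (95% interval -0.55 to 0.46). For Zic1 it was 0.15 (-0.67 to 0.97), with 4 of 6 Y397F-T10 libraries below the VEH-T10 median.

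In Y397D-T3 against VEH-T3, 0 of 8 genes passed, beside 0.00758% of all rows, and 2 of 8 had an unadjusted p under 0.05, both lower, beside 2.72% of all rows lower at that level. These were the Wnt pathway factors Tcf7l2 (-0.31, standard error 0.097, limma adjusted p = 0.52) and Lef1 (-0.27, standard error 0.126, limma adjusted p = 0.628). Both genes were below the VEH-T3 median in 6 of 6 Y397D-T3 libraries. All 8 differences were below 0, with a median of -0.16 against 0.002 over all rows. Markers of some other cell types moved alongside, since all 6 choroid plexus genes had differences below 0 with a median of -1.66, and 4 of 5 meningeal fibroblast genes with a median of -0.47. So had all 5 oligodendrocyte genes, with a median of -0.19, and 3 of 4 endothelium genes, with a median of -0.11, and 0 of the genes on these 4 lists were called. Their part in the differences of Tcf7l2 and Lef1 was not tested. Other lists did not fall as a whole, with 0 of 4 dentate granule genes (median 0.06) and 2 of 5 CA1 pyramidal genes (median 0.1) below 0. Of the cortex genes 3 of 5 were below 0, of the other thalamus genes 4 of 7, and Tac2 of the habenula list lay at -0.3. Slc17a6 differed by -0.19 (95% interval -0.7 to 0.31).

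In VEH-T10 against VEH-T3, 0 of 8 genes passed by limma, beside 0.0455% of all rows, and 0 had an unadjusted p under 0.05, beside 8.15%. All 8 differences were below 0, beside 49.0% of all rows. They lay between -0.76 for Zic1 (95% interval -1.58 to 0.07) and -0.12 for Prkcd (-0.93 to 0.7), with a median of -0.21 against 0.003 over all rows. The same VEH-T3 libraries serve this comparison and that of Y397D-T3, so their shared direction is no independent agreement. Slc17a6 differed by -0.32 (-0.83 to 0.18). Tnnt1, in the fit without a filter, differed by 0.03, -0.04 and 0.0 in the 3 comparisons.

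The 9 genes did not vary together among mice of one condition. After subtraction of condition means, 26 of the 36 pairs had r above 0, with a median of 0.142, and 2 of 36 passed an adjusted permutation p of 0.05. Prkcd and Plekhg1 were the closest pair (r = 0.858, permutation p = 0.00017, adjusted 0.00612; rho = 0.554), but this rested on the 4 libraries that stood apart, for r was 0.174 (permutation p = 0.379) over the other 26. Slc17a6 and Prkcd ran opposite (r = -0.642, permutation p = 0.00208, adjusted 0.0374; rho = -0.4, permutation p = 0.0407), and this relation, too, was -0.083 over the other 26 libraries.

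**Figure D3:**
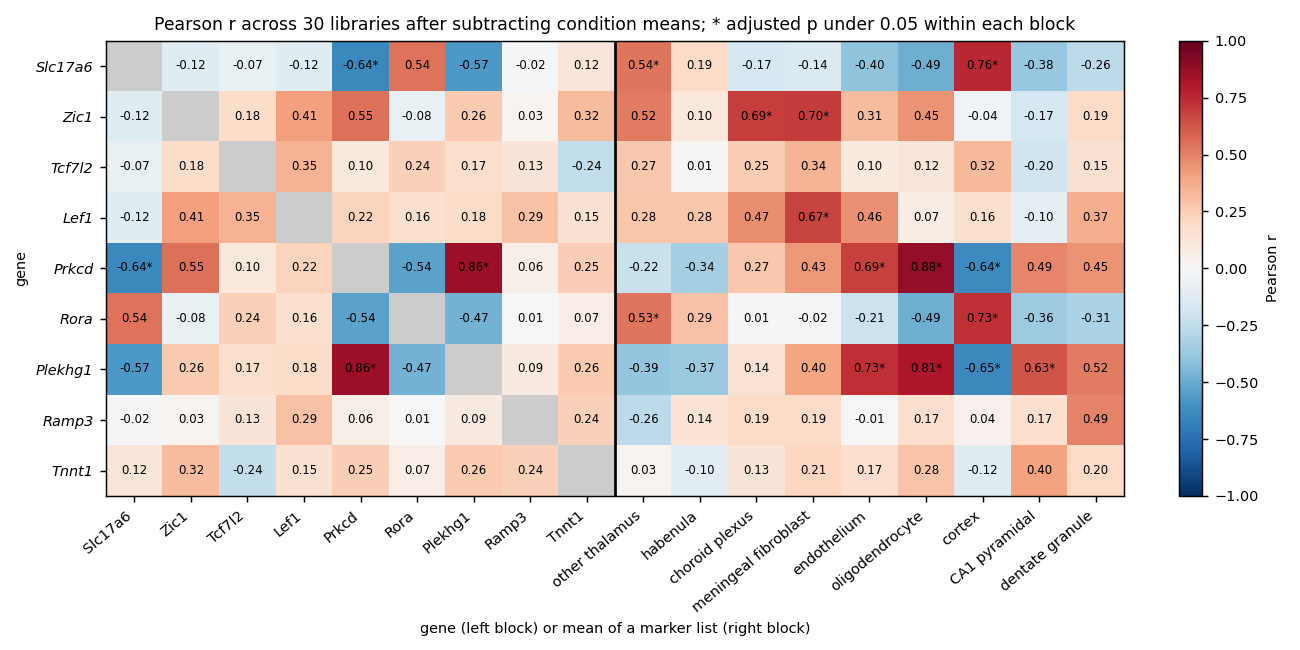
Pearson r across 30 libraries after subtracting condition means, colour and number in each cell, for each of the 9 genes (rows) against the other genes (left block, 36 pairs) and the mean of each of 9 marker lists (right block, 81 relations); asterisks mark adjusted permutation p under 0.05 within a block. In the left block 2 pairs carry an asterisk, and in the right block 14 relations do.

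Among the 8 relations of Slc17a6 to the other genes, 3 passed an adjusted p of 0.05: those to Prkcd (adjusted permutation p = 0.0166), Plekhg1 (r = -0.573, adjusted permutation p = 0.027) and Rora (r = 0.54, adjusted permutation p = 0.0457). None of the 3 passed on ranks, with adjusted permutation p of 0.163, 0.381 and 0.163. Leaving out the pair of libraries farthest from the median of Slc17a6, VEH-T3 replicates 1 and 4, gave r = -0.469 for Plekhg1 and 0.413 for Rora, and leaving out the 4 libraries that stood apart gave 0.173 and 0.0611. The relations to Plekhg1 and Rora thus rested on those libraries. Zic1, Tcf7l2, Lef1, Ramp3 and Tnnt1 had r between -0.124 and 0.122 with Slc17a6.

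Of 13183 other rows, those most like Slc17a6 within conditions were Tshz2 (r = 0.908), Klhdc8a (0.907), Amn (0.874), Tox (0.858), Cdh22 (0.856), Tshz3 (0.85), Nxph3 (0.846), Cplx3 (0.83), Cbln2 (0.829) and Garnl3 (0.817), over 30 libraries that include the 4 that stood apart. Tshz2 and Tshz3 encode teashirt zinc-finger factors, and Cplx3 a complexin made in the deepest cortical layer. The 7 other genes that passed the filter were further off: Rora ranked 488, Ramp3 6176, Tcf7l2 7001, Lef1 7822 and Zic1 7824, while Plekhg1 ranked 13118 and Prkcd 13162. At the other end stood Arrdc4 (-0.791), Iyd (-0.751), Cpne9 (-0.733), Cd109 (-0.712) and Lats2 (-0.703). The 10 rows most like Slc17a6 all had differences below 0 from VEH-HC in each trained condition, between -1.47 and -0.31, beside 59.7%, 63.7%, 61.0% and 59.6% of all rows below 0, and these comparisons share the VEH-HC libraries with those of Slc17a6.

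Against the marker lists, Slc17a6 followed the 7 cortex genes (r = 0.756, permutation p = 4e-05, adjusted over 9 lists 0.00036; rho = 0.661, adjusted permutation p = 0.00108) and, less closely, the other thalamus genes (r = 0.539, permutation p = 0.00138, adjusted 0.00621; rho = 0.491, adjusted permutation p = 0.0288), with r above 0 in all 5 conditions for both. Without the 2 libraries farthest from its median, r was 0.665 and 0.446. Over the 26 libraries left without those that stood apart, r was 0.424 (adjusted permutation p = 0.165) and 0.27 (adjusted permutation p = 0.515), so neither passed there. Slc17a6 did not pass with habenula (r = 0.192), choroid plexus (-0.171), meningeal fibroblast (-0.142), endothelium (-0.402), oligodendrocyte (-0.491), CA1 pyramidal (-0.379) or dentate granule genes (-0.259). The summed level of the 7 cortex genes lay between 26.1 and 30.1 FPKM in VEH-HC, with a median of 28.0 FPKM. It ran from 19.8 to 25.3 FPKM in VEH-T10 and from 20.2 to 27.3 FPKM in Y397F-T10. In VEH-T3 it ran from 22.6 to 34.8 FPKM and in Y397D-T3 from 21.6 to 29.8 FPKM. Trained medians lay between 23.0 and 25.0 FPKM, and all trained ranges but that of VEH-T10 overlapped VEH-HC. Whether cortical tissue had a part in the Slc17a6 values was not tested.

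Further relations of Prkcd, Plekhg1 and Rora passed over 30 libraries but not without the same 4. Over all 30 libraries Prkcd followed the oligodendrocyte list (r = 0.877, permutation p = 2e-05, adjusted over 81 relations 0.00108; rho = 0.668) and ran against the cortex list (r = -0.638, permutation p = 0.00556, adjusted 0.0346; rho = -0.243). Over the other 26 these were 0.569 (permutation p = 0.0145, not passing once adjusted over 81) and 0.182. Plekhg1 did likewise with the oligodendrocyte list (r = 0.81, and 0.302 over the 26) and the endothelium list (0.729 and 0.476), and Rora with the cortex list (0.729 and 0.424). The 5 oligodendrocyte genes were all abundant, none of them at 0, and their summed level ran from 1901.6 to 2191.4 FPKM in VEH-HC and from 1170.8 to 3829.0 FPKM in the trained conditions. The part of white matter in the Prkcd and Plekhg1 values was not tested.

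Of all 81 relations between genes and lists, 14 passed over 30 libraries and 5 over the 26, the latter adjusted over 81 again. Those 5 were Zic1 with the other thalamus genes (r = 0.894, permutation p = 1e-05, the smallest that 100000 permutations can give), with choroid plexus (0.667) and with meningeal fibroblasts (0.663), Lef1 with meningeal fibroblasts (0.701), and Prkcd with the other thalamus genes (0.65, permutation p = 0.00255). Over all 30 libraries the first of these (r = 0.522) and the last (r = -0.221) did not pass. The list of other thalamus genes includes Zic4, the neighbour of Zic1 on chromosome 9. Gbx2 does not enter its mean, which used the 9 genes with a mean of at least 0.1 FPKM.

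**Figure D4:**
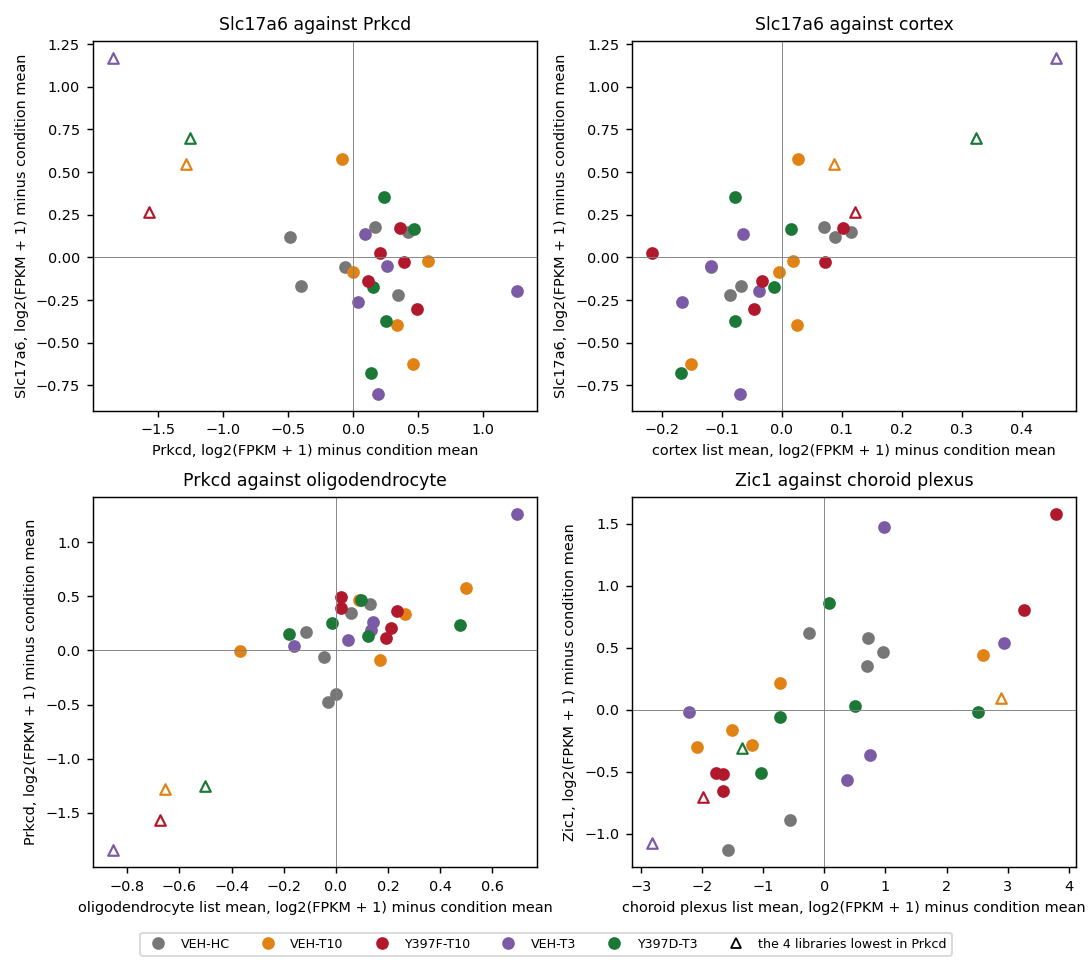
Each point is a library, as log2(FPKM + 1) minus the mean of its condition on both axes; open triangles are the 4 libraries lowest in Prkcd. The triangles form the upper left corner for Slc17a6 against Prkcd (r = -0.642 with them, -0.083 without) and the lower left for Prkcd against the oligodendrocyte list (0.877 and 0.569), whereas Zic1 against choroid plexus spreads along the whole range (0.693 and 0.667).

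Other lists were compared with VEH-HC beside the 9 genes. Of the 7 other thalamus genes tested, 0 passed limma's adjusted p of 0.05 in any trained condition, and their median differences were -0.26, -0.2, -0.2 and -0.16. Furthest down was Cbln1, a secreted synaptic organizer, with 3.23 ± 1.04 FPKM in VEH-HC and means between 1.15 and 2.17 FPKM in the trained conditions (differences -0.94, -0.83, -0.6 and -0.68, limma adjusted p between 0.101 and 0.215). Plcb4, a phospholipase C, and Rgs16, a regulator of G-protein signalling, had differences between -0.41 and -0.2, and Ntng1, which encodes netrin-G1, between -0.31 and -0.13. The other 3 lay around 0, with Lhx9 between -0.08 and 0.06, Amotl1 between -0.16 and 0.07 and Adarb1 between 0.03 and 0.13. Without the 4 libraries that stood apart, Cbln1 passed as lower in all 4 trained conditions (differences -0.95, -0.92, -0.91 and -0.94, limma adjusted p between 0.000382 and 0.000669), Ntng1 in VEH-T10 (-0.4, 0.0263) and Rgs16 in Y397D-T3 (-0.36, 0.0221). In that setting 577, 652, 1056 and 736 of 13184 rows were called lower, against 66, 87, 387 and 417 with all 30 libraries. The 4 libraries are all trained and lay above their condition mean of the other-thalamus list, by 0.078, 0.0596, 0.188 and 0.1889. The calls without them thus follow in part from leaving them out, and nothing is read from them. Of the 5 cortex genes tested, 1 passed as lower in VEH-T10, beside 0.501% of all rows, and in Y397D-T3, beside 3.16%. This was Ctgf, a matrix protein of the deepest cortical layer, which fell by 0.92 in the former (limma adjusted p = 0.0479) and by 0.74 in the latter (0.0443). Its differences in Y397F-T10 and VEH-T3 were -0.67 and -0.56 (limma adjusted p = 0.136 and 0.143), and without the 4 libraries it passed as lower in all 4 conditions. Tle4 lay between -0.02 and 0.01, Rorb between -0.09 and -0.01, Scnn1a between -0.22 and -0.06 and Cux2 between -0.3 and -0.23. Cux2 passed as lower in VEH-T3 and Y397D-T3 only without the 4 libraries. Each of the 4 had the highest cortex list mean of its condition. The Ctgf and Cux2 calls without them thus follow in part from leaving them out, and nothing is read from those calls. Of the 5 CA1 pyramidal genes, 1 was called higher in VEH-T3, beside 2.23% of all rows, and 2 in Y397D-T3, beside 3.91%, and 0 were called lower in any condition. Spink8 rose by 0.49 in the former (limma adjusted p = 0.0465), and Neurod6 by 0.33 (0.0275) and Pou3f1 by 0.33 (0.0198) in the latter. The others did not pass, with Wfs1 at -0.29, -0.3, 0.13 and -0.01 and Fibcd1 at 0.09, 0.07, -0.13 and 0.06. Without the 4 libraries Spink8 passed as higher in all 4 trained conditions, Neurod6 in VEH-T10 and Y397D-T3, and Pou3f1 in Y397D-T3. All rows called higher in that setting numbered 212, 240, 612 and 679 of 13184. Each of the 4 libraries had the lowest CA1 pyramidal list mean of its condition, so these calls, too, follow in part from leaving them out. Of 4 dentate granule genes, 0 passed in any condition, and without the 4 libraries Lct passed as higher in all but VEH-T10. Among the libraries left out, Y397F-T10 replicate 1 and VEH-T3 replicate 1 had the lowest dentate granule list means of their conditions. Nothing is read from these Lct calls. The matrix gene Dcn fell by 1.06 in Y397D-T3 (limma adjusted p = 0.00248), and without the 4 libraries it also passed as lower in VEH-T10 and Y397F-T10. Of 4 endothelium genes, the receptor gene Flt1 rose by 0.24 in VEH-T3 (limma adjusted p = 0.0492) and the transporter gene Slco1a4 fell by 0.42 in Y397D-T3 (0.0158), and 0 of 5 oligodendrocyte genes passed in any condition. Without the 4 libraries Mbp passed as higher in VEH-T3 (0.55, limma adjusted p = 0.0163). Those libraries hold the 4 lowest Mbp values and are all trained, so this call follows in part from leaving them out and nothing is read from it. Among habenula genes only Tac2 passed the filter, with differences between -0.52 and -0.22.

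Each of the other genes had its own nearest rows. Zic1 was closest to Zic2 (r = 0.959), Ubxn10 (0.905) and Ttc21a (0.874), Prkcd to Smad7 (0.941), Cacng5 (0.94) and Clic4 (0.914), and Plekhg1 to Thbs4 (0.953), Bcas1 (0.909) and Sept2 (0.905). Rora was closest to Hivep1 (0.874), Cux2 (0.783), which is also on the cortex list, and Tox (0.772), the last of which is among the 10 rows nearest to Slc17a6. Lef1 (Tns2, 0.768), Ramp3 (Emx1, 0.806), Tcf7l2 (Capn2, 0.651) and Tnnt1 (Eif2s1, 0.686) had weaker nearest rows. These likenesses are descriptions over 30 libraries, and 4 of those libraries carry much of the spread for Prkcd, Plekhg1 and Rora.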

How the data were processed

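The deposited table holds FPKM per gene symbol, which the authors computed from paired reads aligned to mm10 with TopHat2 2.1.1 and Cufflinks 2.2.1, per the labels. Column names match 1 sample each. FPKM gives no read totals, so absolute depth is unknown, and precision is shown by the spread among 6 mice. Libraries ran on NovaSeq and HiSeq instruments, and which library ran on which is not given in the sources used here.

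Rows with a mean of at least 1 FPKM entered limma 3.58.1 (R 4.3.3) as log2(FPKM + 1), with all 30 libraries, 1 coefficient per condition, a mean-variance trend and Benjamini-Hochberg adjustment over 13184 rows. The study itself used a Cyber-T analysis of variance. Lists were scored as the mean log2(FPKM + 1) of genes with a mean of at least 0.1 FPKM. Relations used Pearson's r and Spearman's rho on values minus condition means, with 100000 permutations within conditions, 2-sided. Relative depth came from the steps between low values of 2642 rows. Scripts were tested on simulated data.

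The members and lists were chosen with earlier results of these data known. All 9 genes are named; other lists name at most 3 genes each by the size of their mean difference from VEH-HC, plus called genes, and the 10 rows most like Slc17a6. The remaining tested genes of the other-thalamus, cortex and CA1 lists, and Lct, were named after their values were seen. The relations among all genes and lists, the rows nearest to the other genes, and the values without 4 libraries were added after the data were seen. Alternatives were a pseudocount of 0.1, no filter, median-centred libraries, only the libraries compared, a replicate block, no trend, and leaving out each library. Gene positions are from the GENCODE annotation of GRCm38. Python 3.11.15 was used for the rest.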

Additional observations from a re-analysis of the deposited data

Results flagged for a closer look

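In 7 of the 45 sets of 6 libraries (9 genes in 5 conditions), the highest or lowest library was separated from the nearest other by a larger share of the whole range than the 95% critical value of Dixon's test allows, and chance gives about 1 in 20. That rate holds for independent, normally distributed sets, whereas here the same libraries recur across genes. Of these, 6 belong to the libraries that stood apart, which were singled out by low Prkcd, Plekhg1 and Mbp, so their Prkcd and Plekhg1 flags are no separate evidence. VEH-T3 replicate 1 was set off by its Slc17a6 of 6.15 FPKM (next 2.49), its Rora of 4.53 FPKM (next 3.22) and its Plekhg1 of 2.15 FPKM (next 4.44). Y397D-T3 replicate 3 was set off by its Prkcd of 5.46 FPKM (next 15.9) and its Plekhg1 of 1.97 FPKM (next 3.79). Y397F-T10 replicate 1 was set off by its Prkcd of 3.7 FPKM (next 14.1). Y397D-T3 replicate 6 was set off by its Zic1 of 6.16 FPKM (next 3.03). The cause of these separations was not tested.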

How the results depend on the processing

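The number of the 9 genes called against VEH-HC depended on the setting. Calls of these genes against VEH-HC, here and below, rest on the contrast that chose them. They show how the fit behaves, and nothing is read from them about the genes. From 1 at VEH-T10, 1 at Y397F-T10, 0 at VEH-T3 and 2 at Y397D-T3, median-centred libraries gave 0 at VEH-T10 and 0 at Y397F-T10, and using only the libraries compared gave 2 at VEH-T10 (Slc17a6, Zic1) and 4 at Y397D-T3 (Lef1, Slc17a6, Tcf7l2, Zic1). With only the libraries compared, 230 and 1160 of 13184 rows were called lower at VEH-T10 and Y397D-T3, against 66 and 417 in the main fit. Median-centred libraries gave 13 rows lower at VEH-T10 and 12 at Y397F-T10. Leaving out the 4 libraries low in Prkcd, an alternative added after the data were seen, gave 2 at VEH-T3 (Plekhg1 higher, Slc17a6 lower) and 3 at Y397D-T3 (Plekhg1 higher, Slc17a6 and Tcf7l2 lower). The Plekhg1 calls follow in part from leaving out its lowest values, all of them in trained libraries. The Slc17a6 call at VEH-T3 likewise follows in part from leaving out replicate 1, its highest value. In that setting 1056 of 13184 rows were called lower and 612 higher at VEH-T3, and 736 and 679 at Y397D-T3. Leaving out 1 library at a time gave 0 to 1 calls at VEH-T10, 0 to 2 at Y397F-T10, 0 to 1 at VEH-T3 and 1 to 3 at Y397D-T3. Slc17a6 was not called at VEH-T10 without VEH-HC replicate 1, 2, 5 or 6 or VEH-T10 replicate 2, 4, 5 or 6, nor at Y397F-T10 without VEH-HC replicate 2, 4 or 5 or Y397F-T10 replicate 3, 4, 5 or 6. At Y397D-T3 it was not called without Y397D-T3 replicate 2 or 5. Without VEH-T3 replicate 1 it was called at VEH-T3, and without Y397F-T10 replicate 2 both Slc17a6 and Zic1 were called at Y397F-T10. Its difference from VEH-HC was below 0 each time, between -1.19 and -0.59.

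Replicate numbers name different mice. The correlations of deviations between same-numbered libraries had medians between -0.105 and 0.228 per number, and the lowest was below 0 for each number. They reached 0.84 for number 1, which 3 of the 4 libraries that stood apart carry, 0.558 for number 4 and 0.521 for number 5. A fit with the replicate block called 1 gene at VEH-T3, Slc17a6, and left the calls of members in the other comparisons as they were in number. That fit called 469 of 13184 rows lower at VEH-T3, against 387 without the block.

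Genes on the 9 other lists called against VEH-HC numbered 1, 0, 2 and 5 in the same order. At VEH-T10 they were 0 with no filter, 0 with median-centred libraries, 0 without a trend, 4 with only the libraries compared and 6 without the 4 libraries. At Y397F-T10 they were 5 without the 4 libraries. At VEH-T3 they were 0 with no filter, 0 median-centred, 0 with only the libraries compared and 7 without the 4 libraries. At Y397D-T3 they were 15 with only the libraries compared, all 6 choroid plexus genes among them, and 10 without the 4 libraries. With 1 library left out they ranged from 0 to 2, 0 to 1, 0 to 4 and 3 to 8. Over all rows, 108, 149, 681 and 932 calls became 321, 43, 0 and 1845 with only the libraries compared, and 789, 892, 1668 and 1415 without the 4 libraries. With median-centred libraries they numbered 46, 42, 341 and 940.

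Differences between trained conditions near 0 changed sign when 1 library was left out. For Y397F-T10 minus VEH-T10 the ranges were -0.17 to 0.07 for Slc17a6, -0.17 to 0.29 for Zic1, -0.05 to 0.14 for Lef1, -0.37 to 0.2 for Prkcd and -0.07 to 0.2 for Plekhg1, and Slc17a6 was 0.01 without the 4 libraries. For Y397D-T3 minus VEH-T3 they were -0.35 to 0.04 for Slc17a6, -0.46 to 0.16 for Prkcd, -0.28 to 0.01 for Plekhg1 and -0.11 to 0.05 for Ramp3, and for VEH-T10 minus VEH-T3 -0.49 to 0.14 for Prkcd. None of the 9 genes was called between trained conditions in any setting tried.

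Relations to Slc17a6 also moved. Rora was at 0.482 with a pseudocount of 0.1, 0.581 with median-centred libraries, 0.413 without the 2 farthest libraries and 0.0611 without the 4 libraries, and passed in none of these. Plekhg1 was at -0.469 without the 2 and 0.173 without the 4, and Prkcd at -0.083 without the 4. Zic1 turned to 0.125 and 0.182, and Ramp3 to 0.155 and 0.0984, without the 2 and the 4, and Ramp3 to 7.13e-05 with median-centred libraries. The other thalamus genes were at 0.41 with a pseudocount of 0.1 and at 0.27 without the 4. Without the 2, choroid plexus was at 0.118, meningeal fibroblasts at 0.0887 and dentate granule genes at 0.0451. Without the 4, cortex was at 0.424, habenula at -0.0636, choroid plexus at 0.00177, meningeal fibroblasts at 0.186, endothelium at 0.0352, oligodendrocytes at 0.168 and dentate granule genes at 0.275. Apart from fewer samples in the reduced sets, the cause of these changes was not tested.

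Read totals are unknown, so values near or below 1 FPKM, those of Tnnt1 and Tcf7l2 among the 9, are of unknown counting precision, and adding 1 to FPKM shrinks their differences. With a pseudocount of 0.1, Tcf7l2 differed from VEH-HC by -0.43 at VEH-T10 and by -0.63 at Y397D-T3.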
